A study of Homo sapiens with 9 samples.

Results

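The BCL2 family decides whether a cell under stress permeabilises its outer mitochondrial membrane, the step that releases cytochrome c and commits the cell to apoptosis. Pro-survival members such as BCL2, BCL-xL and MCL1 hold the effectors BAK and BAX in check. BH3-only members are the sensors of the pathway: they bind the groove of the pro-survival proteins, or the effectors themselves, through a short helix called the BH3 domain. In prostate carcinoma the family is studied because its pro-survival members are linked to survival under androgen deprivation. The 10 genes described here were chosen by name from the deposited gene table, as pro-survival and pro-death family members set apart from the p53 target genes, and the table lists 60623 genes in all. Of the 10, 4 are pro-survival genes (BCL2, BCL2L1, BCL2L2 and MCL1), 1 encodes an effector (BAK1) and 5 are BH3-only genes (BID, BCL2L11, BAD, BMF and BIK). The rule uses gene names and no measured value, though it was set with earlier results of these data known. All 10 passed the filter on low counts, which left 16213 genes for testing.

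RNA was sequenced from 22Rv1, an established human prostate carcinoma line that expresses the androgen receptor. In every group the cells carried a short hairpin RNA against PDCD4, which encodes a tumour suppressor that inhibits the translation helicase EIF4A, and PDCD4 was then put back in 1 of 3 forms. The S239D form carries aspartate, a mimic of phosphoserine, in place of the serine that the kinase PLK1 phosphorylates, the S239A form carries alanine, which cannot be phosphorylated, and the WT form keeps the serine. The study asks how this phosphorylation bears on resistance to the androgen receptor antagonist enzalutamide. Each form had 3 libraries, and the titles of the S239D libraries shorten the variant's name, so the genotype label was used to group them. Parental cells and cells with the hairpin but no rescue were not analysed here. The promoter of the introduced PDCD4 is not named in the labels, nor whether a group is 1 clone or whether its libraries came from separate cultures. The p-values therefore measure the spread between these libraries alone, which may be technical.

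The 10 proteins share the BH3 segment, shown here as the coding DNA around its core. It is the segment through which the BH3-only members bind their partners in the family. Each line gives 27 bases of the coding strand of the longest coding GENCODE 29 transcript. The capitals mark the leucine codon (methionine in BCL2L2) and the aspartate codon that define the core.
BCL2: accCTCcgccaggccggcGACgacttc
BCL2L1: gcgCTGagggaggcaggcGACgagttt
BCL2L2: gccATGcgggcagctggaGATgagttc
MCL1: accTTAcgacgggttgggGATggcgtg
BAK1: cagCTCgccatcatcgggGACgacatc
BID: cacCTCgcccaggtcgggGACagcatg
BCL2L11: gagTTGcggcgtattggaGACgagttt
BAD: gagCTCcggaggatgagtGACgagttt
BMF: aagCTTcagtgcattgcaGACcagttc
BIK: cggCTGgcctgcatcgggGACgagatg

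The core was searched in frame as a leucine or methionine codon, 3 codons of any kind, a codon for glycine, alanine or serine and then an aspartate codon. It was found in 10 of 10 members. Of these, 9 had 1 match and BID had 2, of which the match with a glycine codon is printed. The same pattern was present in 7767 of 19479 coding genes (39.9%), so the match describes the members and does not define them. A glycine codon stood before the aspartate codon in the printed stretches of all members except BAD, which has a serine codon there, and BMF, which has an alanine codon. The core began at codon 213 of MCL1, codon 97 of BCL2, codon 78 of BAK1 and codon 152 of BCL2L11.

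Facts of the whole series that bear on the members are these. Libraries held 5696840 to 9688577 counts, with the lowest total in WT replicate 2. CPM below are counts scaled to the library total after TMM normalisation, and TPM are RSEM's transcript levels, scaled also for length. On the leading principal component of log2 CPM, with 56.8% of the variance, the 3 S239D libraries stood apart. S239D libraries lay at -58.7 to -55.2 on it, and S239A and WT libraries at 24.7 to 33.5. On the second component, with 10.9% of the variance, replicate 2 of S239D (-27.3) and of S239A (-35.8) lay apart. All other libraries lay at 2.81 to 17.5 on it. Counts from the mitochondrial genome made up 4.72% to 6.01% of each S239D library, 2.99% to 5.38% of each S239A library and 2.83% to 3.04% of each WT library, with replicate 2 highest in both variants. All 10 markers of luminal prostate epithelium exceeded 1 TPM in every library. Their summed level was 2670 to 2730 TPM in S239D, 3688 to 4112 TPM in S239A and 3546 to 3643 TPM in WT. The 6 markers of fibroblasts, of which LUM and COL1A1 exceeded 1 TPM in every library, summed to 27.0 to 36.8 TPM in S239D, 48.4 to 61.1 TPM in S239A and 46.4 to 58.7 TPM in WT. The 6 leukocyte markers summed to 2.31 to 2.81 TPM in S239D, 2.51 to 7.77 TPM in S239A and 3.12 to 4.4 TPM in WT, with the T-cell marker CD3E at 0 throughout, and the 5 endothelial markers to at most 0.18 TPM in any library. The part of these shifts in the results below was not tested, and in bulk RNA fewer cells of a type and less RNA per cell cannot be told apart. PDCD4 averaged 17.0 ± 0.184 CPM in S239D, 22.4 ± 3.06 CPM in S239A and 23.1 ± 2.40 CPM in WT (SD, n = 3 each), counts that can hold the cells' own and the introduced transcript. PDCD4 fell in S239D relative to WT (log2 fold change -0.44, SE 0.13, edgeR adjusted p = 0.0164), a call lost without WT replicate 1 (-0.41, adjusted p = 0.0657) or WT replicate 2 (-0.39, adjusted p = 0.0627). By limma the log2 fold change of PDCD4 against WT was -0.29 on log2(TPM + 1) (adjusted p = 0.41) and -0.31 on log2(TPM + 0.1) (adjusted p = 0.411), which did not pass. PDCD4 was also lower in S239D than in S239A (-0.40, SE 0.13, edgeR adjusted p = 0.0245). That call was lost in 3 of 9 fits with 1 library left out (adjusted p up to 0.11). Over all alternatives its adjusted p reached 0.589.

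Per transcript length, MCL1 was the most abundant member in every group and BCL2 the least. MCL1, whose short-lived product sequesters BAK and BIM, averaged 259 ± 13.4 TPM in S239D, 180 ± 7.28 TPM in S239A and 165 ± 0.509 TPM in WT (SD, n = 3 each). BAD, a BH3-only gene whose product is held inactive by phosphorylation, came next with 97.8 ± 18.7 TPM in S239D, 113 ± 13.6 TPM in S239A and 111 ± 3.49 TPM in WT. BCL2L1, which encodes BCL-xL and a shorter splice form of opposite action, followed with 41.7 ± 4.39, 42.9 ± 3.92 and 45.2 ± 2.62 TPM in S239D, S239A and WT. The order MCL1, BAD, BCL2L1, BMF held in all 3 groups, and the libraries of neighbours in it did not overlap. BMF averaged 35.4 ± 2.92 TPM in S239D, 32.8 ± 3.20 TPM in S239A and 32.0 ± 1.04 TPM in WT.

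The middle of the order was less sharp. BCL2L2 (26.6 ± 7.39, 18.5 ± 3.95 and 17.8 ± 3.18 TPM in S239D, S239A and WT), BAK1 (21.8 ± 2.0, 16.3 ± 3.0 and 14.7 ± 1.16 TPM in S239D, S239A and WT) and BIK (14.2 ± 2.43, 15.3 ± 3.16 and 18.6 ± 0.555 TPM in S239D, S239A and WT) exchanged places between groups, and the libraries of neighbours among them overlapped in S239A and WT. BCL2L11 and BID lay under these genes in S239A and WT, at 10.7 ± 1.18 and 7.98 ± 1.88 TPM in S239A and 13.3 ± 1.24 and 11.2 ± 3.59 TPM in WT. In S239D BCL2L11 averaged 15.1 ± 8.90 TPM, a spread set by 1 library, and BID 8.81 ± 1.99 TPM. BCL2, the founding member of the family, averaged 4.0 ± 1.03 TPM in S239D, 3.74 ± 0.446 TPM in S239A and 3.85 ± 0.683 TPM in WT, and its libraries did not overlap those of the next gene, BID, in any group.

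**Figure D1:**
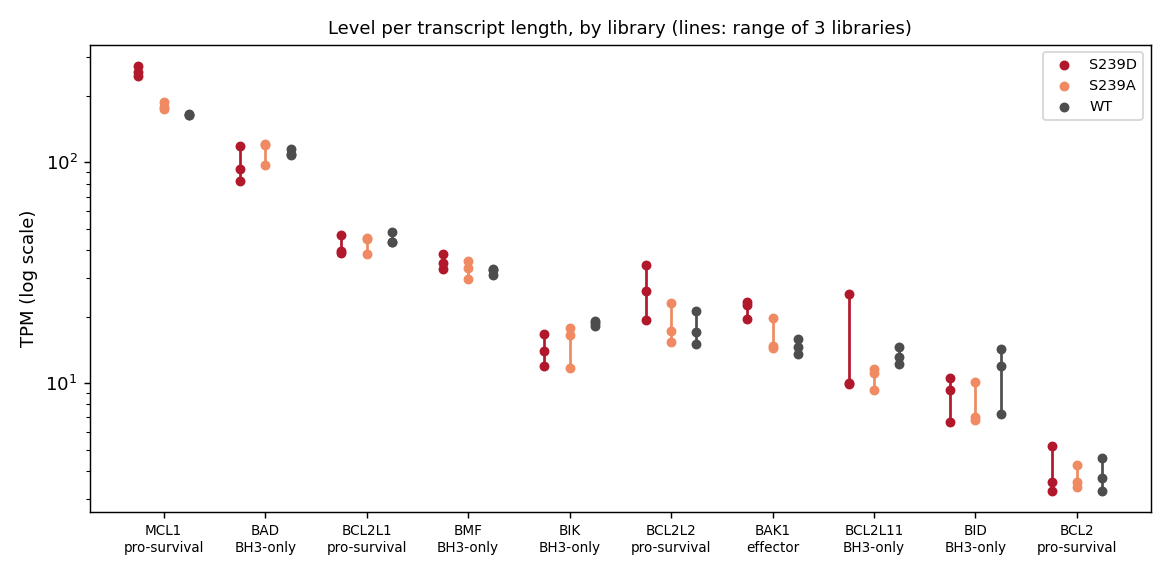
Level of each member in each library, in TPM on a log axis, with genes ordered by their mean in WT and lines spanning the 3 libraries of a group (S239D left, S239A middle, WT right). MCL1 is highest and BCL2 lowest in every group, and 1 S239D library lists BCL2L11 at 25.3 TPM against 9.88 and 9.96 TPM in the other S239D libraries.

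Set against WT, S239D cells had more MCL1 and BAK1 RNA and less BCL2L11 RNA, while the other 7 members did not pass the test. MCL1, a pro-survival gene, and BAK1, the effector that MCL1 restrains, thus changed in the same direction. In the edgeR quasi-likelihood test 3 of 10 members passed at an adjusted p under 0.05, 2 higher and 1 lower. Of all genes tested 41.4% passed, 19.7% higher and 21.7% lower, so the share of members is not above that of the transcriptome. At an unadjusted p under 0.05, 5 of 10 members and 49.4% of all genes differed. The libraries of S239D and WT did not overlap for 5 members, 2 higher and 3 lower, against 53.9% of all genes (26.5% higher and 27.4% lower). The median log2 fold change over the 10 members was -0.09, beside 0.00075 over all genes tested.

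MCL1 (ENSG00000143384, chromosome 1, 150574551 to 150579738, minus strand, in the deposited coordinates, which match GRCh38 as do those of the other members) had 645, 649 and 660 CPM in the S239D libraries, 469, 508 and 488 CPM in the S239A libraries and 446, 451 and 437 CPM in the WT libraries. Every S239D library lay above every other library, and the S239A libraries lay above those of WT without overlap. Its log2 fold change in S239D against WT was 0.55 (SE 0.069, 95% interval 0.40 to 0.70, edgeR adjusted p = 2.85e-05). MCL1 passed in this comparison under all alternatives, with log2 fold changes of 0.54 to 0.65. It is also the most deeply counted member, with 2570 to 6285 counts per library. Counts are per gene, so the anti-apoptotic long form and the pro-apoptotic short form of MCL1 were not told apart.

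The other 3 pro-survival genes did not pass. BCL2L2, which encodes BCL-w (chromosome 14, 23298790 to 23311759, plus strand), had 49.4, 37.0 and 55.5 CPM in S239D, 36.0, 28.3 and 45.8 CPM in S239A and 36.3, 38.5 and 38.1 CPM in WT. In S239D, replicates 1 and 3 lay above all WT libraries and replicate 2 within their range. Replicate 2 was also the lowest library of S239A. Its log2 fold change against WT was 0.33 (95% interval -0.02 to 0.69, edgeR adjusted p = 0.121). Without S239D replicate 2 it was 0.48 (adjusted p = 0.0209), and without replicate 2 of both variants 0.49 (adjusted p = 0.00018), and it also passed with all genes kept in the test (0.33, adjusted p = 0.0389). BCL2L2 shares 813 exon bases with the readthrough gene BCL2L2-PABPN1, and with the counts of both genes added the log2 fold change was 0.33 (adjusted p = 0.0502).

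BCL2L1 (chromosome 20, 31664452 to 31723989, minus strand) had 45.7, 36.4 and 49.5 CPM in S239D, 53.8, 45.7 and 53.3 CPM in S239A and 52.1, 53.0 and 52.8 CPM in WT. All S239D libraries lay below the narrow WT range, and replicate 2 was the lowest of both variants. The log2 fold change of BCL2L1 against WT was -0.26 (95% interval -0.51 to -0.01, edgeR adjusted p = 0.0885), and without S239D replicate 3 it was -0.36 (adjusted p = 0.0495). BCL2L1 shares 1424 exon bases with the antisense gene ABALON, and strandedness is not given in the sources used here, so reads of the 2 genes cannot be told apart.

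BCL2 (chromosome 18, 63123346 to 63320128, minus strand) had 16.2, 16.8 and 15.0 CPM in S239D, 16.2, 20.3 and 17.0 CPM in S239A and 17.3, 15.5 and 18.9 CPM in WT. The 3 groups overlapped, and the log2 fold change in S239D against WT was -0.12 (95% interval -0.41 to 0.17, edgeR adjusted p = 0.514). Genes of chromosome 18 had a median log2 fold change of 0.21 in that comparison (232 genes), and 8 tested neighbours of BCL2 within 1 Mb had a median of 0.35. BCL2 lay under both medians, a difference that was not tested.

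BAK1 encodes an effector that forms the pores of the outer mitochondrial membrane (chromosome 6, 33572547 to 33580293, minus strand). It had 31.4, 25.5 and 32.1 CPM in S239D, 28.1, 20.9 and 21.9 CPM in S239A and 23, 21.1 and 19.6 CPM in WT. Every S239D library lay above every WT library, and S239A replicate 1 reached into the S239D range. The log2 fold change of BAK1 in S239D against WT was 0.48 (SE 0.14, 95% interval 0.18 to 0.78, edgeR adjusted p = 0.0128). The call was lost without S239D replicate 3 (0.42, adjusted p = 0.0577) and without WT replicate 3 (0.43, adjusted p = 0.0631), and without replicate 2 of both variants BAK1 stood at 0.58 (adjusted p = 0.000197).

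**Figure D2:**
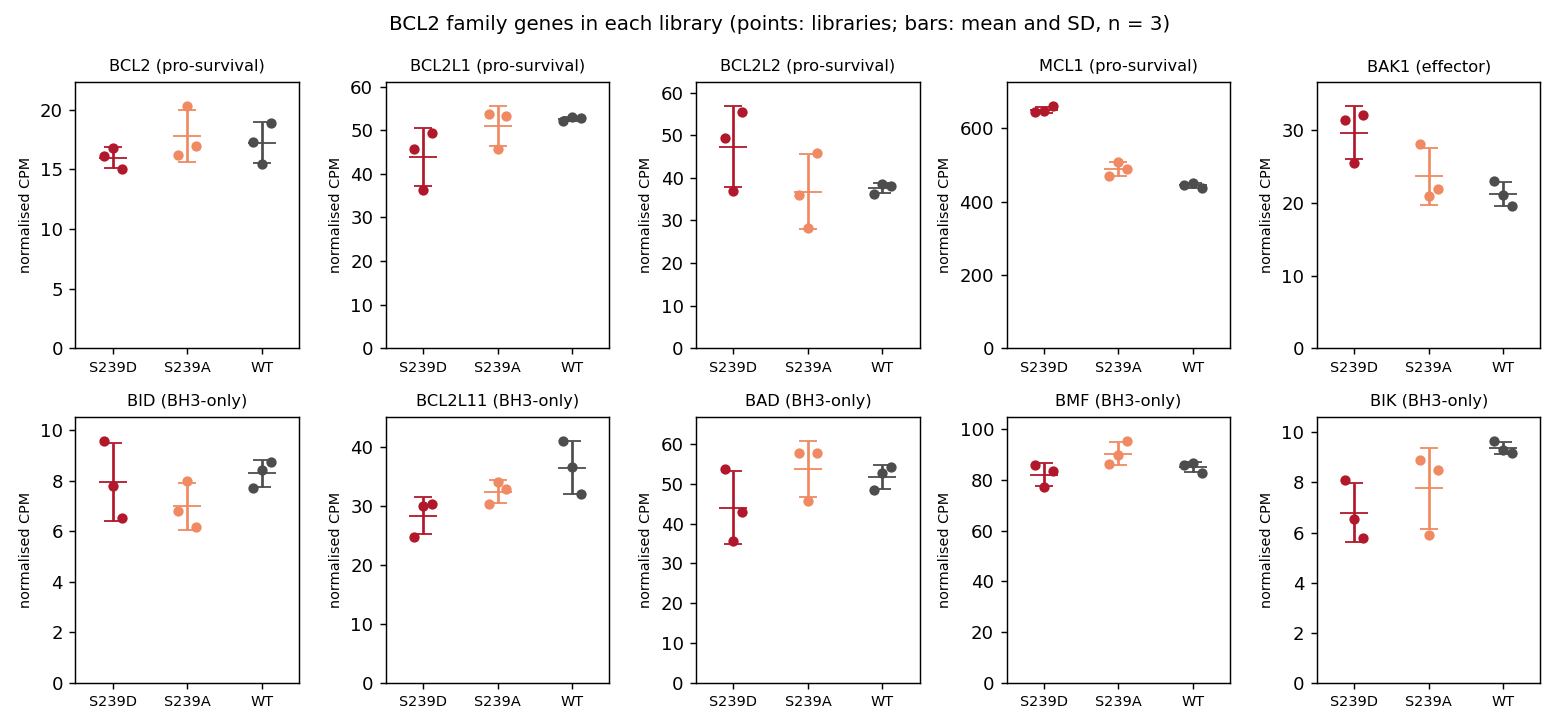
Normalised CPM of the 10 members in each library, with the mean and SD of the 3 libraries of S239D, S239A and WT, each panel with its own axis from 0. The MCL1 libraries of S239D lie at 645 to 660 CPM, above 437 to 451 CPM in WT, BAK1 is higher in S239D without overlap with WT, and BCL2L11, BIK and BCL2L1 are lower without overlap.

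Among the 5 BH3-only genes BCL2L11 fell in S239D relative to WT and the other 4 did not pass. BCL2L11 encodes BIM, which engages all pro-survival proteins and can activate BAK and BAX directly (chromosome 2, 111119378 to 111168445, plus strand). It had 24.7, 29.8 and 30.3 CPM in S239D, 30.2, 34.0 and 32.8 CPM in S239A and 40.9, 36.5 and 32.0 CPM in WT. All S239D libraries lay below all WT libraries, and S239A lay between and overlapped both. The log2 fold change of BCL2L11 was -0.36 (SE 0.12, 95% interval -0.63 to -0.10, edgeR adjusted p = 0.0281). The call was lost without S239D replicate 1 (-0.28, adjusted p = 0.109), WT replicate 1 (-0.27, adjusted p = 0.154) or WT replicate 2 (-0.36, adjusted p = 0.066). Without replicate 2 of both variants it was -0.40 (adjusted p = 0.0054).

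The fall of BCL2L11 was seen in counts and not in the deposited TPM values. S239D replicate 2 was listed at 25.3 TPM, against 9.96 and 9.88 TPM in the other S239D libraries, 9.34 to 11.6 TPM in S239A and 12.2 to 14.6 TPM in WT, although its CPM lay beside that of S239D replicate 3. By limma on log2(TPM + 1) its log2 fold change was 0.04 (adjusted p = 0.942). TPM divides by an effective length that RSEM estimates from the mix of transcripts, of which GENCODE 29 lists 25 for BCL2L11, and the mix in each library was not analysed here. The ratio of CPM to TPM varied 2.98-fold between libraries for BCL2L11, more than for any other member, and a ratio varying over 2-fold was found in 8.24% of 13759 genes with at least 1 TPM throughout. BCL2L11 also shares 727 exon bases with the opposite-strand gene MIR4435-2HG, which held 17 to 47.5 counts per library against 202 to 377 for BCL2L11.

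The promoter of BCL2L11 is shown because FOXO factors are known activators of the gene and FOXO3 was among the genes higher in S239D. BCL2L11 itself was lower in counts, the opposite direction, and a link between the genes was not tested. The RefSeq window from 250 bases before to 50 bases after the start on GRCh38.p14, chr2:111120664-111120963, plus strand, reads as follows, with the match to GTAAACA in capitals.
BCL2L11 promoter: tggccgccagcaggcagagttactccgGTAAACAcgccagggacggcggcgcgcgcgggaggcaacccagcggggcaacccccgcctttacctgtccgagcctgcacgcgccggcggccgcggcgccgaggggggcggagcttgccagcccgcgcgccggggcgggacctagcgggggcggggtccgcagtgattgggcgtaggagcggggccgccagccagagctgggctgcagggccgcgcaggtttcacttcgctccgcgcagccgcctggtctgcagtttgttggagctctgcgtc

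The match begins 223 bases before the start. On both strands, GTAAACA was found in 3.42% of 35116 promoter windows of this length. Windows were listed for 7 of the 10 members (14 windows), not for MCL1, BCL2L2 or BIK, and in the other 6 listed members GTAAACA was not found. The E-box CACGTG, found in 7.26% of all windows, occurred in 2 of the 5 windows of BID and in none of the other members' windows.

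BIK, an early-described BH3-only gene whose product acts at the endoplasmic reticulum (chromosome 22, 43110750 to 43129712, plus strand), had 8.08, 6.54 and 5.77 CPM in S239D, 8.89, 5.90 and 8.50 CPM in S239A and 9.64, 9.31 and 9.18 CPM in WT. All libraries of both variants lay below those of WT. The log2 fold change of BIK in S239D against WT was -0.47 (95% interval -0.89 to -0.05, edgeR adjusted p = 0.0706). It passed without S239D replicate 1 (-0.61, adjusted p = 0.0408) and without S239A replicate 2 (-0.47, adjusted p = 0.0359). BIK rested on 48 to 89 counts per library, which limits its precision.

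The libraries of the other 3 BH3-only genes overlapped between S239D and WT. BAD (chromosome 11, 64269830 to 64284704, minus strand) had 53.6, 35.5 and 42.8 CPM in S239D, 57.6, 45.6 and 57.8 CPM in S239A and 48.4, 52.7 and 54.3 CPM in WT. S239D replicate 1 lay within the WT range and the other S239D libraries below it, at a log2 fold change of -0.23 (edgeR adjusted p = 0.199), or -0.40 without that library (adjusted p = 0.0314). BAD shares 404 exon bases with the opposite-strand gene GPR137, which held 293 to 575 counts per library, so their reads may be mixed.

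BMF, whose product is tethered to the cytoskeleton until released by stress (chromosome 15, 40087890 to 40108892, minus strand), had 86.0, 77.0 and 83.3 CPM in S239D, 86.0, 89.6 and 95.2 CPM in S239A and 85.7, 86.6 and 82.7 CPM in WT. Its S239D and WT libraries overlapped (log2 fold change -0.05, 95% interval -0.23 to 0.13, edgeR adjusted p = 0.666). BID, which carries the death receptor signal to mitochondria after cleavage by caspase-8 (chromosome 22, 17734138 to 17774770, minus strand), had 9.55, 7.77 and 6.51 CPM in S239D, 6.79, 7.99 and 6.15 CPM in S239A and 7.69, 8.43 and 8.73 CPM in WT. The S239D libraries of BID lay on both sides of the WT range, at a log2 fold change of -0.06 (95% interval -0.47 to 0.34, edgeR adjusted p = 0.815).

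Between S239A and WT cells no member passed (0 of 10 by edgeR and 0 by DESeq2, and 0 at an unadjusted p under 0.05), beside 0.00617% of all genes, which is 1 gene, and 9.76% of genes at an unadjusted p under 0.05. The count of all genes moved with the setting, to 69 by DESeq2, 142 with no filter on low counts and 874 without replicate 2 of both variants, and the members' count stayed at 0 in these settings. The median log2 fold change of the members was 0.0049, beside 0.0017 over all genes. The libraries of 2 members did not overlap between S239A and WT, 1 higher and 1 lower, against 19.5% of all genes (9.94% higher and 9.55% lower). They were MCL1, at 488 ± 19.4 CPM in S239A and 445 ± 7.23 CPM in WT (SD, n = 3 each), and BIK, at 7.76 ± 1.63 CPM in S239A and 9.38 ± 0.240 CPM in WT.

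The log2 fold change of MCL1 in S239A against WT was 0.13 (95% interval -0.01 to 0.28, edgeR adjusted p = 0.553), and that of BIK was -0.27 (95% interval -0.68 to 0.15, edgeR adjusted p = 0.687). BID (-0.25, 95% interval -0.66 to 0.16) and BCL2L11 (-0.17, 95% interval -0.43 to 0.09) were lower in S239A and BAK1 (0.15, 95% interval -0.15 to 0.46) higher, all within intervals that include 0. The remaining 5 members lay between -0.05 and 0.09 on the log2 scale. Intervals of this width do not show that S239A and WT express the members alike.

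Against S239A, the direct comparison of the phosphate mimic with the form that cannot be phosphorylated, S239D again had more MCL1. MCL1 averaged 651 ± 7.76 CPM in S239D and 488 ± 19.4 CPM in S239A (SD, n = 3 each), a log2 fold change of 0.42 (SE 0.069, 95% interval 0.27 to 0.56, edgeR adjusted p = 0.000258). It was the only member of 10 to pass, beside 43.6% of all genes, 20.9% higher and 22.7% lower. At an unadjusted p under 0.05, 3 members and 51.2% of all genes differed. The libraries did not overlap for MCL1, which was higher, and BMF, which was lower, against 49.8% of all genes (24.2% higher and 25.6% lower), and for BMF the groups were separated by less than the third digit of the CPM value. The median log2 fold change of the members was -0.15, beside 0.0099 over all genes.

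BAK1 (0.33, edgeR adjusted p = 0.066) and BCL2L2 (0.36, edgeR adjusted p = 0.0887) missed the threshold in S239D against S239A. Same-numbered libraries of these 2 groups correlated in their deviations from the group mean at 0.1, 0.251 and 0.103. A differently numbered pair stood at 0.15, so a pairing by number is not established. With the replicate number as a block over all 9 libraries, BAK1 (0.34, edgeR adjusted p = 0.0302) and BCL2L2 (0.37, edgeR adjusted p = 0.0202) passed with MCL1, making 3 members. BCL2L2 also passed without S239D replicate 2 (0.51, adjusted p = 0.0144) or S239A replicate 3 (0.56, adjusted p = 0.0155), and BAK1 without S239D replicate 2 (0.43, adjusted p = 0.0207) or S239A replicate 1 (0.47, adjusted p = 0.0211). Without replicate 2 of both variants 4 members passed, MCL1 (0.45), BAK1 (0.36) and BCL2L2 (0.36) higher and BAD lower (-0.26, adjusted p = 0.0301). BAD, at -0.29 with all libraries (edgeR adjusted p = 0.11), passed without S239D replicate 1 (-0.45, adjusted p = 0.0159) and without S239A replicate 2 (-0.39, adjusted p = 0.0326). BCL2L11 was -0.19 (95% interval -0.45 to 0.07, edgeR adjusted p = 0.222), so its fall against WT had no counterpart past the threshold against S239A, and these comparisons share the S239D libraries.

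**Figure D3:**
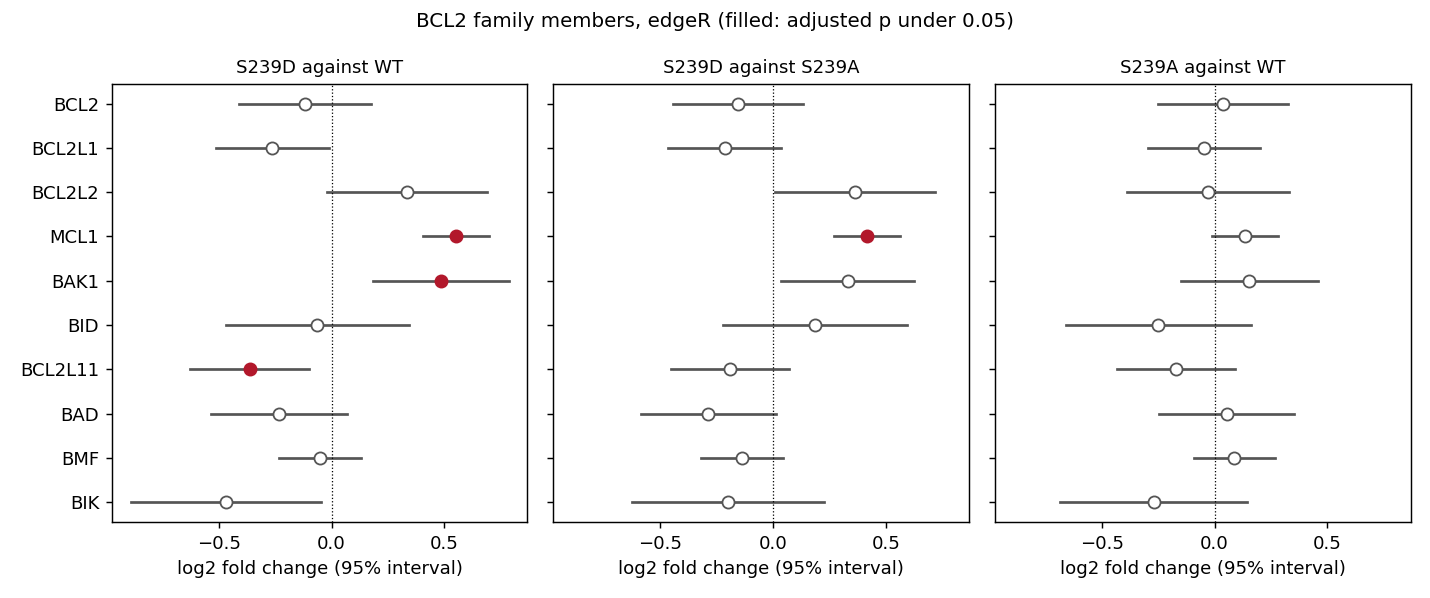
Log2 fold change of each member with its 95% interval from edgeR, for S239D against WT, S239D against S239A and S239A against WT, with filled points at an adjusted p under 0.05. MCL1 is filled in both comparisons of S239D (0.55 and 0.42), BAK1 and BCL2L11 only against WT, and no point is filled for S239A against WT.

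Summed over the 10 genes, pro-survival transcripts were higher in every S239D library than in the other libraries, and the pro-death sums of the 3 groups overlapped. The 4 pro-survival genes summed to 332 ± 13.9 TPM in S239D, 245 ± 1.29 TPM in S239A and 232 ± 2.23 TPM in WT (SD, n = 3 each). BAK1 and the 5 BH3-only genes summed to 193 ± 20.6 TPM in S239D, 196 ± 13.5 TPM in S239A and 200 ± 5.16 TPM in WT. BAD was the largest part of this sum, at 97.8, 113 and 111 TPM in S239D, S239A and WT, and its reads may be mixed with those of GPR137. In S239D replicate 2 the sum holds BCL2L11 at 25.3 TPM, a level that its counts did not show. The ratio of the sums was 1.46, 1.85 and 1.90 in the S239D libraries, 1.18, 1.36 and 1.23 in the S239A libraries and 1.17, 1.16 and 1.14 in the WT libraries, with all S239D libraries above all others. MCL1 made up 78.2 ± 2.82% of the pro-survival sum in S239D, 73.4 ± 2.84% in S239A and 71.1 ± 0.884% in WT.

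Most of that difference was MCL1 itself. Without MCL1 the ratio was 0.316, 0.352 and 0.467 in S239D, 0.318, 0.321 and 0.359 in S239A and 0.328, 0.334 and 0.338 in WT, and the groups overlapped. These sums are descriptions of transcript levels and were not tested, and they say nothing of protein levels. BAX, the other effector, is not among the 10 genes and not in the sums, and its level was large beside them. BAX had 163, 109 and 174 TPM in S239D, 97.2, 66.8 and 149 TPM in S239A and 121, 135 and 107 TPM in WT. With BAX added to the pro-death sum, as chosen after seeing the data, the ratio was 0.832, 1.16 and 0.963 in S239D, 0.802, 0.995 and 0.705 in S239A and 0.724, 0.693 and 0.747 in WT. The S239D libraries then still lay above those of WT but overlapped those of S239A.

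**Figure D4:**
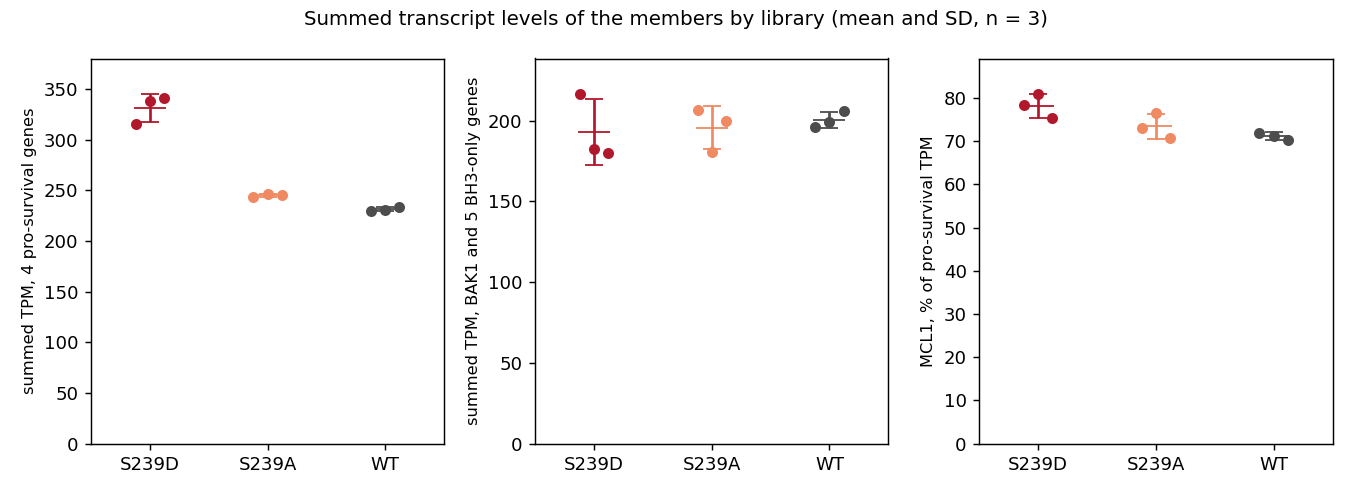
Summed TPM of the 4 pro-survival genes, summed TPM of BAK1 and the 5 BH3-only genes, and the share of MCL1 in the pro-survival sum, by library with mean and SD (n = 3) and axes from 0. The pro-survival sum is 316 to 341 TPM in S239D, above 230 to 234 TPM in WT, while the pro-death sums overlap between all 3 groups.

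The genes whose level over the 9 libraries followed MCL1 most closely were NR4A3, an orphan nuclear receptor (Pearson r = 0.995), TSC1, an inhibitor of mTORC1 signalling (0.994), and ZFP62, a zinc finger gene (0.99). NR4A3 averaged 28.8 ± 3.16 CPM in S239D, 8.38 ± 1.06 CPM in S239A and 5.61 ± 0.724 CPM in WT, and TSC1 averaged 65.6 ± 3.0 CPM in S239D, 40.7 ± 2.73 CPM in S239A and 36.1 ± 1.70 CPM in WT (SD, n = 3 each). They were picked as the highest of 12079 genes with at least 5 CPM on average, of which 216 exceeded 0.95, and the value follows mainly the difference between S239D and the other libraries. Within 1 Mb of MCL1, 63 other genes were tested in S239D against WT, of which 19 were higher and 5 lower, with a median of 0.18. Of all genes 19.7% were higher and 21.7% lower, and no test of the neighbours was made. Around BAK1 (44 tested neighbours, 8 higher and 12 lower, median 0.0048) and BCL2L11 (12 tested, 2 higher and 2 lower, median -0.11) the neighbours were mixed.

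In the wider apoptosis machinery about the same share of genes passed as in the whole transcriptome. Of 65 genes on 6 pathway lists, 55 were tested in S239D against WT, of which 10 were higher and 14 lower, or 43.6%, beside 41.4% of all genes (19.7% higher and 21.7% lower). Their median log2 fold change was -0.07, beside 0.00075 over all genes tested. In S239A against WT 0 of the 55 passed by edgeR (9 at an unadjusted p under 0.05) and 2 by DESeq2, 1 of them BNIP3 (-0.41, DESeq2 adjusted p = 0.0107).

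Of 12 other BCL2 homology and BH3-only genes, 8 were tested, 1 was higher and 4 were lower in S239D than in WT (median -0.31). Those called were 62.5% of the 8, beside 41.4% of all genes. BAX, the effector that acts beside BAK, had 80.2, 54.0 and 75.8 CPM in S239D, 43.7, 29.1 and 53.5 CPM in S239A and 47.0, 48.8 and 44.7 CPM in WT. All S239D libraries of BAX lay above those of WT (log2 fold change 0.58, SE 0.18, edgeR adjusted p = 0.019). The call was lost without S239D replicate 1 (0.48, adjusted p = 0.0735) or 3 (0.52, adjusted p = 0.0693), without WT replicate 1 (0.59, adjusted p = 0.0572) or 3 (0.55, adjusted p = 0.0683). By limma on log2(TPM + 1) BAX stood at 0.27 (adjusted p = 0.482). PMAIP1 encodes NOXA, a BH3-only protein that binds MCL1. It had 10.9, 10.5 and 8.92 CPM in S239D, 19.4, 16.7 and 19.3 CPM in S239A and 16.8, 19.1 and 18.9 CPM in WT.

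S239D libraries of PMAIP1 lay far below all others (-0.86 against WT, SE 0.14, edgeR adjusted p = 0.000257, and -0.87 against S239A, adjusted p = 0.000178). The mitophagy receptor genes BNIP3L (-0.70, edgeR adjusted p = 6.12e-05) and BNIP3 (-0.44, edgeR adjusted p = 0.000958) were lower against WT. HRK, a BH3-only gene of neurons, was lower as well (-0.65, edgeR adjusted p = 0.0459), at 2.45 to 5.55 CPM in S239D and 6.12 to 6.94 CPM in WT. The HRK call was lost without S239D replicate 1 (-0.39, adjusted p = 0.164) or 3 (-0.71, 0.0755), without any 1 WT library (-0.70 to -0.61, adjusted p 0.0732 to 0.129) and without S239A replicate 1 (adjusted p = 0.0587) or 3 (adjusted p = 0.0554). It was also lost with DESeq2 (-0.65, adjusted p = 0.0856) and with only the S239D and WT libraries in the fit (-0.66, adjusted p = 0.0611). BBC3, which encodes PUMA (-0.17, edgeR adjusted p = 0.574), BOK (0.12, 0.442) and BCL2L13 (0.01, 0.927) did not pass. Against S239A 4 of the 8 passed, which is 50%, beside 43.6% of all genes. BAX was higher (0.73) and BNIP3L (-0.65), PMAIP1 and HRK (-1.06) were lower. With the replicate number as a block BBC3 was lower too (-0.34, edgeR adjusted p = 0.0481).

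Downstream of the family, 4 of 11 genes of mitochondrial release and the apoptosome were lower and 0 higher in S239D against WT (median -0.18), which is 36.4%, under the 41.4% of all genes. They were ENDOG, a mitochondrial nuclease (-1.04, SE 0.10, edgeR adjusted p = 3.48e-06), APAF1, the scaffold of the apoptosome (-0.66), CYCS, which encodes cytochrome c (-0.40), and the channel gene VDAC2, whose product restrains BAK (-0.32). By limma on log2(TPM + 1) APAF1 (-0.23, adjusted p = 0.283) and VDAC2 (-0.19, adjusted p = 0.18) did not pass. ENDOG averaged 104 ± 16.7 CPM in S239D and 212 ± 8.28 CPM in WT (SD, n = 3 each). Against S239A 5 of the 11 were lower (45.5%, beside 43.6% of all genes), ENDOG (-1.04), APAF1 (-0.80), VDAC2 (-0.26), AIFM1 (-0.23) and CYCS (-0.21). The VDAC2 call against S239A was lost without S239D replicate 1 (adjusted p = 0.053) or 3 (0.0684) or S239A replicate 1 (0.0786), and the AIFM1 call was lost without any 1 of 7 libraries (adjusted p 0.053 to 0.0839).

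Of 7 tested caspase and nuclease genes, CASP2 alone passed against WT, which is 14.3%, under the 41.4% of all genes. Its log2 fold change was 0.34 (edgeR adjusted p = 0.0222). The CASP2 call was lost without S239D replicate 2 (0.23, adjusted p = 0.0679), WT replicate 1 (0.33, adjusted p = 0.0733) or WT replicate 3 (0.29, adjusted p = 0.104). Among 5 tested inhibitors of apoptosis BIRC3 (-2.0, SE 0.33) and BIRC5, which encodes survivin (-0.81, SE 0.098), were lower and BIRC6 was higher (0.40). That is 60% of the 5, beside 41.4% of all genes. BIRC3 was near the floor in S239D, at 1.18 ± 0.207 CPM, against 4.73 ± 0.450 CPM in WT (SD, n = 3 each). The BIRC6 call was lost without S239D replicate 2 (0.22, adjusted p = 0.154) and without any 1 WT library (0.39 to 0.41, adjusted p 0.0828 to 0.0959). Among 9 tested death receptor genes 2 were higher and 0 lower against WT, which is 22.2%, under the 41.4% of all genes. They were CFLAR, the inhibitor of caspase-8 activation (0.79, edgeR adjusted p = 0.000221), and TNFRSF10B, the TRAIL receptor DR5 (0.48, edgeR adjusted p = 0.000235). Against S239A FAS was higher too (0.59), making 3 of the 9, which is 33.3%, under the 43.6% of all genes. The FAS call was lost without S239D replicate 2 (0.46, adjusted p = 0.0603) or S239A replicate 1 (0.47, adjusted p = 0.0756). CFLAR did not pass in either comparison by limma on log2(TPM + 1) (0.28 against WT, adjusted p = 0.113).

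Of 15 genes whose products regulate the members, 5 were higher and 4 lower in S239D than in WT (median -0.07). That is 60%, beside 41.4% of all genes. FOXO3, a transcription factor that activates BCL2L11, averaged 104 ± 5.06 CPM in S239D, 73.3 ± 7.92 CPM in S239A and 67.4 ± 2.70 CPM in WT (log2 fold change against WT 0.63, SE 0.095, edgeR adjusted p = 0.000142). HUWE1 (0.47) and BTRC (0.40), of ubiquitin ligases that target MCL1 protein, and USP9X (0.48), a deubiquitinase that stabilises it, were higher. In S239A against WT HUWE1 also stood at 0.47 (edgeR adjusted p = 0.239), USP9X at 0.28 (adjusted p = 0.557) and BTRC at -0.0053, and none passed. Between S239D and S239A the log2 fold change of HUWE1 was 0.0079. FOXO1 (0.48, edgeR adjusted p = 0.0375), also a transcription factor, completes the 5 and was named after its values were seen, as were CYCS and MARCHF5 against S239A. The BTRC call was lost without S239D replicate 2 (adjusted p = 0.0569) or WT replicate 2 (0.0917), and the USP9X call without S239D replicate 2 (0.0684), WT replicate 1 (0.057) or WT replicate 2 (0.0536). PIM1, a kinase that inactivates BAD, averaged 12.6 ± 2.48 CPM in S239D, 28.0 ± 1.95 CPM in S239A and 25 ± 0.938 CPM in WT (log2 fold change against WT -0.98, SE 0.14, edgeR adjusted p = 9.87e-05). PIM3 (-0.38, lost without WT replicate 3 at adjusted p = 0.0566), RPS6KA1 (-0.40), which also acts on BAD, and MARCHF5 (-0.41), a mitochondrial ubiquitin ligase, were lower. Against S239A 7 of the 15 passed, which is 46.7%, beside 43.6% of all genes. PIM1 (-1.14), PIM3 (-0.55), RPS6KA1 (-0.45), MARCHF5 (-0.26) and DYNLL2 (-0.23) were lower and FOXO3 (0.51) and BTRC (0.41) higher. Of these, BTRC was lost without S239A replicate 1 (adjusted p = 0.0919) or 3 (0.068), and DYNLL2, which tethers BMF, without any 1 of 6 libraries (adjusted p 0.0544 to 0.131). Of the calls named here, FOXO1 against WT, and CYCS and MARCHF5 against S239A, were not followed through the alternatives. Of the others, beside those already given, the following passed by edgeR but not by limma on log2(TPM + 1). Against WT they were BNIP3 (-0.29, adjusted p = 0.0564), HRK, CASP2, HUWE1, BTRC, USP9X, PIM3, RPS6KA1 and MARCHF5 (adjusted p up to 0.428). Against S239A they were BAX, HRK, APAF1, AIFM1, VDAC2, CASP2, BIRC3, FAS, BTRC and DYNLL2 (adjusted p 0.0541 to 0.342).

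**Figure D5:**
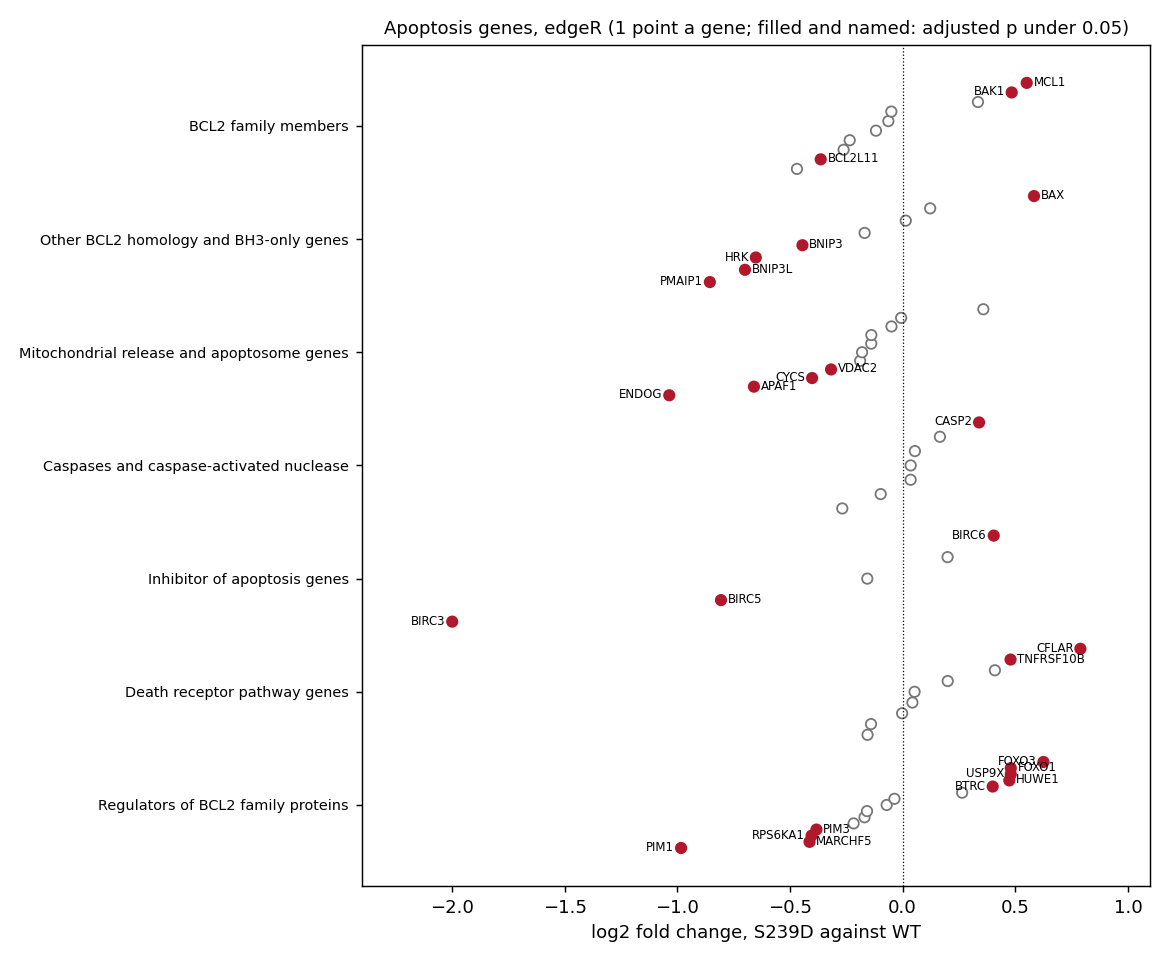
Log2 fold change in S239D against WT of the 10 members and of the tested genes on 6 apoptosis lists, 1 point a gene, with genes at an edgeR adjusted p under 0.05 filled and named. BIRC3, ENDOG, PIM1, PMAIP1 and BIRC5 lie furthest to the left, and CFLAR, FOXO3, BAX and MCL1 furthest to the right.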

How the data were processed

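Column-purified RNA was enriched for polyadenylated transcripts and reverse-transcribed from random primers, per the labels' protocols. The authors deposited RSEM's expected counts, 1 value a gene and not normalised between libraries, and TPM, which RSEM scales within each library by effective transcript length. Read trimming with Trimmomatic 0.39 and quantification with RSEM come from the submitters' processing notes. The aligner, build, annotation and strandedness are not given in the sources used here. Of the gene identifiers 96.52% were in GENCODE 29, of which 99.92% overlapped the GRCh38 gene, and all 10 members shared a gene end with it. Coordinates are those of the deposited table.

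Expected counts (8.02% of the values of genes with any count were not whole, to a tolerance of 1e-06) were rounded, scaled by TMM, filtered with filterByExpr and tested with edgeR 4.0.16 in R 4.3.3. The two-sided quasi-likelihood F test used all 9 libraries with group means, and p-values were adjusted by Benjamini-Hochberg over 16213 genes and called at 0.05. CPM values are TMM-scaled, and SE is the fold change over the root of F. The common biological coefficient of variation was 0.106, and intervals cover the spread between libraries and counting error. On simulated data for S239D against WT (15932 genes) the fit recovered 45.3% of 64 genes changed 1.5-fold. It recovered 80.3% of 66 genes changed 2-fold and 95.4% of 65 changed 4-fold, and 10 of 154 calls were unchanged genes. In the data 41.4% of genes were called, far more than were changed in the simulation. The simulated shares therefore do not give the recovery in the data.

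The members and pathway lists were chosen with earlier results of these data known, so no list is given a test of its own. Named genes are the members, PDCD4, the tested genes of the list of other BCL2 homology genes, up to 4 called genes in each direction of each other list, and the 3 genes most correlated with MCL1. MARCHF5 was matched by its identifier. Deviations of same-numbered S239D and S239A libraries correlated at 0.1, 0.251 and 0.103, each over 0.1 before rounding, although 1 differently numbered pair of these groups stood at 0.15. Those of same-numbered WT and variant libraries correlated at -0.0087 to 0.0914. The labels do not say what the number marks, so a pairing is not established. Alternatives were RLE scaling, DESeq2 1.42.0, limma 3.58.1 on log2(TPM + 1) and log2(TPM + 0.1), no filter, 1 CPM in 6 libraries, only the groups compared, leaving out each library, and a block for the replicate number. Leaving out replicate 2 of both variants, adding BCL2L2-PABPN1 counts to BCL2L2 and adding BAX to the pro-death sum were chosen after seeing the data.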

Additional observations from a re-analysis of the deposited data

How the results depend on the processing

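MCL1 kept its direction and its call in both S239D comparisons under every alternative, and no member passed for S239A against WT under any. For S239D against WT, 5322 to 7533 genes and 2 to 4 members passed with 1 library left out, for S239A against WT 1 to 8 genes and 0 members, and for S239D against S239A 5853 to 7182 genes and 1 to 3 members. Of the lists' genes 18 to 27 passed for S239D against WT, 0 for S239A against WT and 16 to 27 for S239D against S239A. With limma on log2(TPM + 1) and log2(TPM + 0.1) the counts were 4351 (2526 higher) and 4284 (2448 higher) genes for S239D against WT, 2 and 3 for S239A against WT, and 4697 (2784 higher) and 4642 (2708 higher) for S239D against S239A, with 10 and 10, then 12 and 12 list genes in the S239D comparisons. The median of all genes was then 0.082 and 0.090 for S239D against WT and 0.092 and 0.10 for S239D against S239A. With the same 2 settings signs turned in S239D against WT for BCL2L11 (0.037 and 0.032), BMF (0.14 and 0.14) and BCL2 (0.034 and 0.039), in S239A against WT for BCL2 (-0.030 and -0.035), BCL2L2 (0.050 and 0.052) and PMAIP1 (-0.015 and -0.016), and in S239D against S239A for BCL2L11 (0.33 and 0.35), BMF (0.11 and 0.11), BCL2 (0.064 and 0.075) and BCL2L13 (0.14 and 0.14). The cause was not tested. DESeq2 called 69 genes and 2 list genes for S239A against WT, and no filter gave 142 and 2 there, and 2 members for S239D against S239A. With the replicate number as a block 5 members passed for S239D against WT (BCL2L1 at -0.27, adjusted p = 0.0473, and BCL2L2 at 0.32, adjusted p = 0.0417, were added), 6 genes for S239A against WT and 3 members for S239D against S239A. The block changed no other member's call. Without replicate 2 of both variants 8522, 874 and 8243 genes, 4, 0 and 4 members and 28, 7 and 29 list genes passed for S239D against WT, S239A against WT and S239D against S239A. That setting turned BBC3 (0.043) and BCL2L13 (-0.036) in S239D against WT, and BCL2 (-0.066), BCL2L1 (0.024), BCL2L2 (0.13) and BAX (0.064) in S239A against WT. Leaving out 1 library turned values near 0 and not past the threshold. In S239A against WT they ran over -0.0037 to 0.16 for BAD, -0.36 to 0.059 for BAX, -0.064 to 0.11 for BCL2, -0.086 to 0.024 for BCL2L1, -0.22 to 0.13 for BCL2L2, -0.15 to 0.017 for BNIP3L, -0.13 to 0.063 for PDCD4 and -0.043 to 0.083 for PMAIP1. In S239D against S239A BNIP3 ran over -0.081 to 0.013, and in S239D against WT BBC3 over -0.44 to 0.050, BCL2L13 over -0.063 to 0.11 and BID over -0.22 to 0.070. Depth limits BID and BIK most, with 48 to 78 and 48 to 89 counts per library.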
